A study of Mus musculus with 6 samples.

Results

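The heat shock proteins, the DNAJ (HSP40) proteins and the BAG cochaperones were measured here as 77 genes among the 18193 genes that the array of this series represents. They were taken by gene symbol from the array annotation: the Hspa, Hspb, Hsp90, Dnaja, Dnajb, Dnajc and Bag1 to Bag6 series, together with Hspd1, Hspe1, Hsph1 and the heat shock factors. Their 180 probe sets were reduced to 1 per gene, the brightest one by its mean log2 value across all 6 arrays. Under this rule Hsp90ab1 and Hsf1 had no probe set with their symbol alone, and both were not analysed here.

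Total RNA came from whole livers of 6 male FRG mice aged 12 weeks on a C57Bl/6J background, a strain with the genotype Fah-/-, Rag2-/- and Il2rg-/- that models hereditary tyrosinemia type 1. Both groups therefore lacked fumarylacetoacetate hydrolase, the last enzyme of tyrosine breakdown, and both lacked mature T, B and NK cells. All mice ate chow low in tyrosine and phenylalanine and drank water with 16 mg/L NTBC (nitisinone, which blocks the pathway upstream of the missing enzyme) and dextrose. The 3 FRG+NTBC mice stayed on NTBC, and for the 3 FRG-7dNTBC mice it was stopped at 11 weeks, 7 days before sampling. Each liver was hybridised to 1 Affymetrix Mouse 430 2.0 array, and values below are the deposited intensities, which have no absolute unit. Levels of different probe sets were not compared with each other as amounts of RNA.

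Molecular chaperones bind unfolded protein and let it fold, hold it or pass it on for degradation. HSP70 proteins do so in a cycle of ATP hydrolysis that DNAJ proteins start and that nucleotide exchange factors, among them the HSP110 and BAG proteins, reset, while HSP90 acts later on a narrower set of clients and small heat shock proteins hold unfolded protein without ATP. Each compartment has its own set: the cytosol, the endoplasmic reticulum (ER), where transcription of chaperones is driven by the unfolded protein response, and the mitochondrion, with its HSP60 and HSP10 chaperonin. Many cytosolic and some mitochondrial chaperone genes are targets of heat shock factor 1. The liver relies on ER chaperones for its output of plasma proteins.

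Of the 77 genes, 28 were higher in the FRG-7dNTBC livers, 5 were lower, and 44 did not pass the test. A gene was called at an adjusted p under 0.05, from limma's moderated test on log2 values with Benjamini-Hochberg adjustment over all 45037 probe sets. The share called higher was 36.4%, against 17.4% of all genes, and the share called lower was 6.49%, against 12.7%. In whole liver, fewer cells of a type and less RNA per cell cannot be told apart. The median log2 fold change (from FRG+NTBC to FRG-7dNTBC, positive where FRG-7dNTBC is higher) was 0.19 for the chaperone genes and -0.05 for all genes. Below, changes given after "rose by" or in parentheses after a gene are log2 fold changes in this direction. Called genes are more frequent among bright probe sets, and the chaperone genes were brighter than most, with a median intensity of 332.8 against 71.7 for all genes. Among genes with a mean intensity of at least 128, a limit chosen after the data were seen, 25 of 51 chaperone genes were higher (49.0%), against 29.2% of all such genes, and 2 were lower (3.92%), against 19.6%. Median log2 fold changes at that brightness were 0.48 for the chaperone genes and 0.13 for all genes.

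At least 2-fold higher were 19 of the 77 genes, where 8.96% of all genes were, and 0 of 77 were called at least 2-fold lower by limma, where 4.96% of all genes were. With a mean intensity of at least 128, 16 of 51 chaperone genes and 1063 of all 7176 genes were at least 2-fold higher. At least 2-fold lower were 0 of these 51 and 677 of the 7176. The strongest fall among the 77, at any p, was the log2 fold change of -0.87 in Dnajc25, and at an unadjusted p under 0.05 there were 30 genes higher and 9 lower. In 42 of the 77 genes (54.5%) the 3 values of one group did not overlap the 3 of the other, against 46.2% of all genes. All 33 called genes were among those 42. At a mean intensity of at least 128 the shares without overlap lay close together, 64.7% of the chaperone genes and 61.6% of all genes. The 28 higher genes differed by 1.37-fold to 14.1-fold. In 17 of these 28 genes the highest of the 6 values lay in FRG-7dNTBC replicate 2, while 5 had it in replicate 1 and 6 in replicate 3. That mouse also had the highest value in 1464 of all 3167 genes called higher, so its share was 60.7% among the chaperone genes and 46.2% among all, a difference that was not tested.

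**Figure D1:**
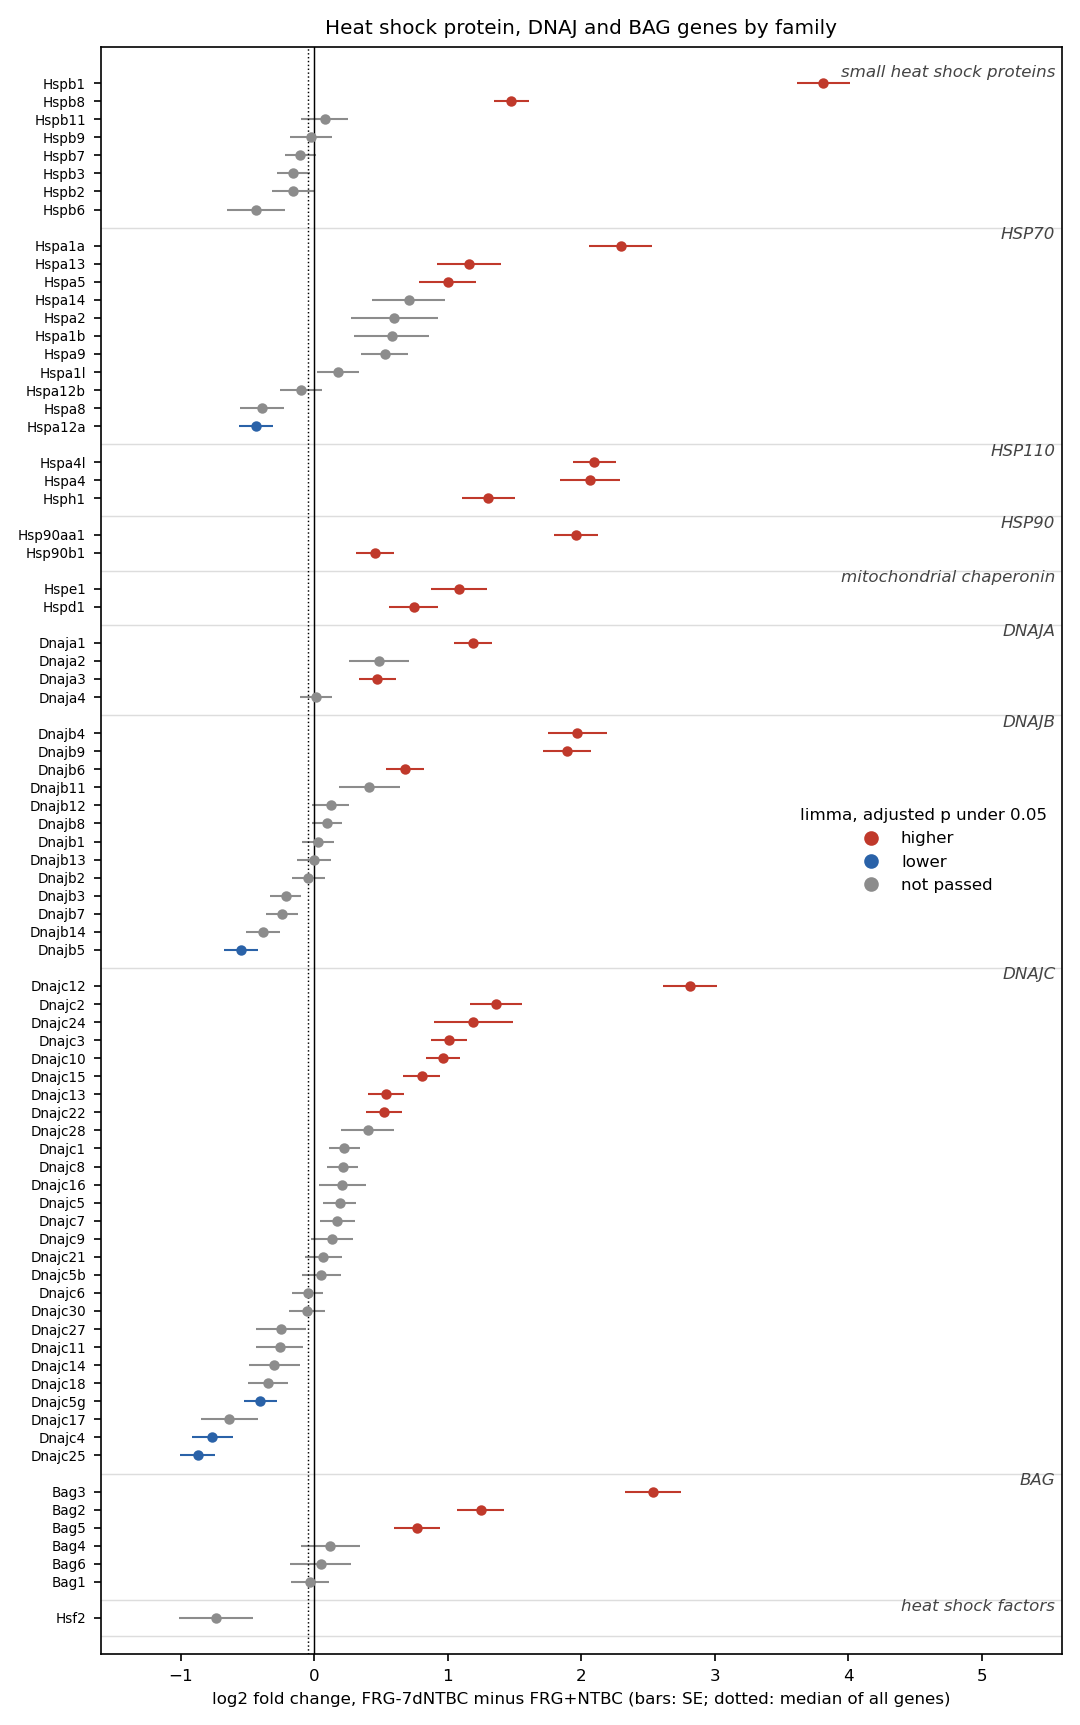
Log2 fold change (x axis, positive where FRG-7dNTBC is higher, with bars for the standard error) of each of the 77 genes, grouped by family on the y axis and coloured by the limma call, with 3 mice per group. Hspb1 lies farthest to the right at 3.81, the HSP110, HSP90 and mitochondrial chaperonin genes were all called higher, and the 5 genes called lower lie between -0.87 and -0.40.

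Stretches of promoter are shown for genes that rose, because heat shock factor and the unfolded protein response act through short elements near the start of transcription. RefSeq promoters on GRCm38.p6 were at hand for 63 of the 77 genes, and the 250 bases before the start were searched on both strands. The letters searched for a heat shock element were GAANNTTC and TTCNNGAA, which are pairs of the 5-base unit and can overlap each other, and for its 3-unit form GAANNTTCNNGAA and TTCNNGAANNTTC. The ER stress element was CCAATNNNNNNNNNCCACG. Capitals mark the matches in the sequences below, which run 5′ to 3′ on the gene's strand. The first 2 are the 250 bases before Hspb1, the gene with the largest change, and before Hspa1a, the inducible HSP70.
Hspb1, chr5:135887669-135887918, plus strand: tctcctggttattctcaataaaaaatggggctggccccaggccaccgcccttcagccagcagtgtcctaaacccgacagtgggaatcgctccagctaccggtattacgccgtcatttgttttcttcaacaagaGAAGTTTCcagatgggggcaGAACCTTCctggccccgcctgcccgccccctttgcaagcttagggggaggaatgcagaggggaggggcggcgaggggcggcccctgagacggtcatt
Hspa1a, chr17:34972157-34972406, minus strand: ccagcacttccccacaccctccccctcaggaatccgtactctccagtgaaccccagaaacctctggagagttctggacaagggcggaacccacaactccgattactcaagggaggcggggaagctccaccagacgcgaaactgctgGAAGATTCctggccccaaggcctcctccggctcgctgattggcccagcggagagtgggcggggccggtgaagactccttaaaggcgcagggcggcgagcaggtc
Hspb1 has matches whose first bases lie 117 and 97 bases before the start, and Hspa1a has 1 match at 104 bases. The next stretches of 30 bases hold the 3-unit form, in Dnajb6 at 46 bases before the start and in Hspe1, which starts close to Hspd1 on the opposite strand. There, overlapping matches begin 89 and 84 bases before the Hspe1 start and the same bases, read on the other strand, lie upstream of an Hspd1 start.
Dnajb6, chr5:29735846-29735875, plus strand: ctccgaGAATCTTCCGGAAcgctagaccag
Hspe1, chr1:55088053-55088082, plus strand: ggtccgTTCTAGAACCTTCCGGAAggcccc
The last 3 are the 250 bases before Hspa5, Dnajc3 and Hsp90b1, genes of ER chaperones with the ER stress element, which occurs at 65 bases in Hspa5, at 105 bases in Dnajc3, and at 212 and 107 bases in Hsp90b1, the second of these on the other strand.
Hspa5, chr2:34771840-34772089, plus strand: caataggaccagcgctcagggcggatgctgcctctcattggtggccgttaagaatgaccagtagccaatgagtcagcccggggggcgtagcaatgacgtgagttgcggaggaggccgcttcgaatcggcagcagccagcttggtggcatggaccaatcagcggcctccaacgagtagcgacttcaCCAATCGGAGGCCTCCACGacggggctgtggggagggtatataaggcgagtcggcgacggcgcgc
Dnajc3, chr14:118937682-118937931, plus strand: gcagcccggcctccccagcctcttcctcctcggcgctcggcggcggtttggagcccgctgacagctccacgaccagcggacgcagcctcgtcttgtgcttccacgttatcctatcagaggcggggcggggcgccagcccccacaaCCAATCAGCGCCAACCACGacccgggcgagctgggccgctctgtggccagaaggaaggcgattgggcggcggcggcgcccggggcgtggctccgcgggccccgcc
Hsp90b1, chr10:86705445-86705694, minus strand: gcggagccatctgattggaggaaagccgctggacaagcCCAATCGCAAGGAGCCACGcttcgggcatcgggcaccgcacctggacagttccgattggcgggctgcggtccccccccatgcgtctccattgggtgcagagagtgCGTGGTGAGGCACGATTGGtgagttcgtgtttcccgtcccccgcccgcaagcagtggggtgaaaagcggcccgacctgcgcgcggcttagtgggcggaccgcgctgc

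Any pair of heat shock units occurred in the promoters of 14 of the 63 genes (22.2%), against 14.5% of all genes and 12.8% of all promoters of this length. By call, 9 of 23 higher genes, 0 of 5 lower genes and 5 of 35 genes that did not pass had such a pair. The higher ones were Hspb1, Hspa1a, Hsph1, Hspd1, Hspe1, Dnaja1, Dnajb4, Dnajb6 and Dnajc10. Those that did not pass were Hspa1b, Dnaja4, Dnajc27, Hspb3 and Hspb6, and Hspa1b has its match at 104 bases, like Hspa1a. Bag3, Hspa4l and Hspb8, called higher and listed here as heat shock factor targets, had no such pair in the window. The 3-unit form was in 0.466% of all promoters (0.514% of all genes) and in those of Dnajb6, Hspd1 and Hspe1, all called higher. The ER stress element was in 0.113% of all promoters (0.13% of all genes) and in those of Hspa5, Dnajc3 and Hsp90b1, 3 of the 6 genes listed here as ER targets of the unfolded protein response. Dnajb9 and Dnajc10, both called higher, and Dnajb11, which did not pass, are on that list and had none in the window. TGACNNNGC, the core of the antioxidant response element, was in 10.2% of all promoters and in 9 of the 63, of which Hsph1 alone was called higher. These matches describe letters in a window and were not tested as binding sites.

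The counts by family that follow stand against 17.4% of all genes called higher and 12.7% called lower. Among genes with a mean intensity of at least 128 these shares were 29.2% and 19.6%. Of the 8 small heat shock protein genes, 2 rose (25.0%), Hspb1 and Hspb8. Hspb1, at chr5:135887919-135889563 on GRCm38.p6, encodes HSP27, which holds unfolded protein and binds actin filaments. Its intensity was 331, 253 and 290 in the FRG+NTBC livers and 4012, 5257 and 3191 in the FRG-7dNTBC livers. The groups were far apart, and the difference was 14.1-fold, or a log2 fold change of 3.81 ± 0.20 (SE, limma adjusted p = 2.85e-05), the largest of the 77 genes. A second Hspb1 probe set gave a log2 fold change of 4.05. Hspb8 encodes HSP22, which works with BAG3 to send protein aggregates to autophagy. Its intensity was 1468, 1209 and 1458 in the FRG+NTBC livers and 3717, 3743 and 4012 in the FRG-7dNTBC livers, again without overlap, and its log2 fold change was 1.48 ± 0.13 (SE, limma adjusted p = 0.000201). A dimmer Hspb8 probe set rose by 2.61 on the log2 scale, and another, below 110 in every mouse, gave 0.20 and did not pass.

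The other 6 small heat shock protein genes did not pass, with log2 fold changes from -0.44 in Hspb6 to 0.08 in Hspb11. Most of them are known from heart and skeletal muscle or from testis. In the FRG+NTBC livers their mean intensities ran from 7.59 for Hspb9 to 183.8 for Hspb6. The array reading of Rag2, a gene that is inactivated in both groups, was 20.1 in both, and 6 of the 77 genes were at or below it in both groups. Where the Rag2 probe set lies relative to the deletion was not tested.

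Among the 11 HSP70 genes, 3 rose (27.3%, against 17.4% of all genes), 1 fell (9.09%, against 12.7%) and 7 did not pass. Hspa1a, at chr17:34969359-34972156, is a heat-inducible cytosolic HSP70. It read 24.3, 21.9 and 16.6 in the FRG+NTBC livers and 119, 72.0 and 122 in the FRG-7dNTBC livers, values that separated fully, with a log2 fold change of 2.30 ± 0.24 (SE, limma adjusted p = 0.000393). The FRG+NTBC values lay near the Rag2 reading, so the size of the change is uncertain, and the gene had only 1 probe set. Hspa1b lies beside it at chr17:34956429-34959238 and encodes a nearly identical protein, and probe sets of this pair can share signal. The brightest Hspa1b probe set read 1629, 1060 and 734 in the FRG+NTBC livers and 1323, 1911 and 1675 in the FRG-7dNTBC livers. Those groups overlapped, and the log2 fold change of 0.58 ± 0.28 (SE) did not pass (adjusted p = 0.166). It passed without FRG+NTBC replicate 1, at a log2 fold change of 0.88 and an adjusted p of 0.0356, and on the mean over all its probe sets, at 1.31 and 0.00855.

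Both of the other Hspa1b probe sets were higher. One of them read 128, 119 and 117 in the FRG+NTBC livers and 345, 792 and 278 in the FRG-7dNTBC livers, which is a log2 fold change of 1.80 ± 0.34 (SE, limma adjusted p = 0.00612), and the other gave 1.56. In both, FRG-7dNTBC replicate 2 was more than 2 times as bright as either other FRG-7dNTBC mouse. The inducible HSP70 genes were thus higher in 3 of their 4 probe sets together, and the brightest of the 4 did not pass.

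Hspa8 encodes the constitutive cytosolic HSP70 (HSC70). It read 10160, 8135 and 6841 in the FRG+NTBC livers and 6039, 6123 and 6747 in the FRG-7dNTBC livers. All 3 FRG-7dNTBC values lay below the FRG+NTBC values, but the log2 fold change of -0.39 ± 0.16 (SE) did not pass (adjusted p = 0.114). Its other 3 probe sets gave 0.33, 0.28 and -0.28 (log2), and none of the 4 passed under limma, with 1 of them at an unadjusted p under 0.05.

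Hspa5 encodes BiP, the HSP70 of the ER and the best known target of the unfolded protein response. Its intensity was 2998, 3641 and 4390 in the FRG+NTBC livers and 5873, 9476 and 6889 in the FRG-7dNTBC livers, with no overlap and a log2 fold change of 1.0 ± 0.21 (SE, limma adjusted p = 0.00982). A second Hspa5 probe set rose by 1.30 on the log2 scale, and another, at 609 and 633 on average in the FRG+NTBC and FRG-7dNTBC groups, gave 0.05. Hspa13, a shortened HSP70 found with ER membranes, read 267, 352 and 419 in the FRG+NTBC livers and 580, 1017 and 739 in the FRG-7dNTBC livers. These groups were apart, the log2 fold change was 1.16 ± 0.24 (SE, limma adjusted p = 0.00877), and 3 of its 4 probe sets were called higher. The calls of Hspa5 and Hspa13 were lost without moderation of the variances (adjusted p = 0.082 and 0.0838).

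Hspa9 encodes mortalin, the HSP70 of the mitochondrial matrix, which pulls in and folds imported protein. The representing probe set read 1898, 2665 and 2759 in the FRG+NTBC livers and 3236, 3902 and 3304 in the FRG-7dNTBC livers. The groups did not overlap, but the log2 fold change of 0.53 ± 0.17 (SE) did not pass (adjusted p = 0.0565). Another Hspa9 probe set had a mean log2 value equal to it at 4 decimals, 11.4967, and read 2916, 3304 and 3444 in the FRG+NTBC livers and 2257, 2504 and 3104 in the FRG-7dNTBC livers, which is -0.31. One more was called lower at -0.67 on the log2 scale, so no direction can be given for Hspa9.

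Among the remaining HSP70 genes, Hspa14 (log2 fold change 0.71), Hspa2 (0.60), Hspa1l (0.18) and Hspa12b (-0.10) did not pass. Hspa12a, a distant relative of the family, was at 33.3 and 24.6 on average in the FRG+NTBC and FRG-7dNTBC groups and was called lower at -0.44 on the log2 scale. That call held under 6 of 15 alternative analyses.

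All 3 HSP110 genes rose. HSP110 proteins release ADP from HSP70 and, with DNAJ partners, pull apart aggregates. Hspa4l read 71.5, 74.5 and 91.8 in the FRG+NTBC livers and 315, 399 and 304 in the FRG-7dNTBC livers, without overlap and with a log2 fold change of 2.10 ± 0.16 (SE, limma adjusted p = 0.000118). Of its 5 probe sets 4 were called higher, and the fifth gave 0.54 on the log2 scale. Hspa4 read 534, 315 and 388 in the FRG+NTBC livers and 1911, 1885 and 1333 in the FRG-7dNTBC livers, again without overlap, a log2 fold change of 2.07 ± 0.23 (SE, limma adjusted p = 0.000491). Its 3 other probe sets gave log2 fold changes of 0.31, 0.30 and -0.23 and did not pass. Hsph1, the heat-inducible HSP110, read 699, 502 and 666 in the FRG+NTBC livers and 1252, 1468 and 1911 in the FRG-7dNTBC livers. No Hsph1 values overlapped, the log2 fold change was 1.30 ± 0.20 (SE, limma adjusted p = 0.00210), and a second probe set rose by 2.31.

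Both measured HSP90 genes rose. Hsp90aa1, at chr12:110691036-110696395, encodes the inducible cytosolic HSP90 and read 1380, 1629 and 1846 in the FRG+NTBC livers and 5442, 6252 and 7181 in the FRG-7dNTBC livers. Its lowest FRG-7dNTBC value was more than 2 times its highest FRG+NTBC value, and the log2 fold change was 1.96 ± 0.16 (SE, limma adjusted p = 0.000160). Its other 2 bright probe sets rose by 2.62 and 2.83 on the log2 scale, while a pair of dim ones, below 36 in every mouse, did not pass. Hsp90b1 encodes GRP94, the HSP90 of the ER, and read 4545, 3566 and 3492 in the FRG+NTBC livers and 5008, 5293 and 5480 in the FRG-7dNTBC livers. The groups were close but did not overlap, and the log2 fold change was 0.45 ± 0.14 (SE, limma adjusted p = 0.0464). That call held under 5 of 15 alternative analyses, and the adjusted p rose to as much as 0.159 under them.

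The mitochondrial chaperonin pair rose together. Hspd1 (HSP60) forms the folding chamber, and Hspe1 (HSP10) is its lid. Hspd1 read 1951, 2419 and 2610 in the FRG+NTBC livers and 3956, 4640 and 3148 in the FRG-7dNTBC livers, with a log2 fold change of 0.74 ± 0.18 (SE, limma adjusted p = 0.0181). Hspe1 read 1585, 1965 and 1795 in the FRG+NTBC livers and 5113, 2916 and 3566 in the FRG-7dNTBC livers, with a log2 fold change of 1.08 ± 0.21 (SE, limma adjusted p = 0.00651). Neither pair of groups overlapped, and a second Hspe1 probe set rose by 1.72 on the log2 scale. The Hspd1 call was lost without moderation and on leaving out FRG+NTBC replicate 1, FRG+NTBC replicate 2 or FRG-7dNTBC replicate 1 (adjusted p from 0.0534 to 0.0929), and that of Hspe1 without moderation (adjusted p = 0.0686).

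**Figure D2:**
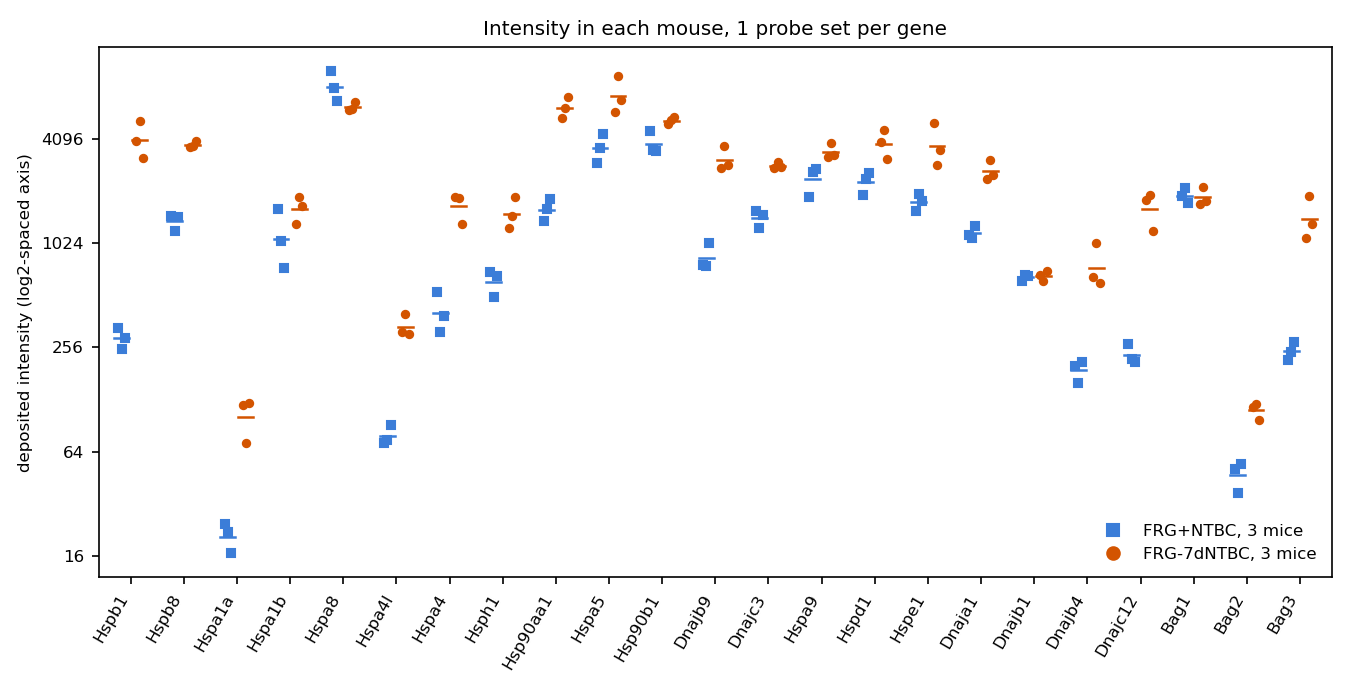
Deposited intensity (y axis, spaced by log2) in each of the 6 mice for 23 genes on the x axis, 1 probe set each, with squares for FRG+NTBC, circles for FRG-7dNTBC and a line at each group's mean on the log2 scale. Hspb1 moves from between 253 and 331 to between 3191 and 5257, while the values of Hspa1b, Dnajb1 and Bag1 overlap between the groups and those of Hspa8 are lower in the FRG-7dNTBC mice without passing the test.

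DNAJ proteins bring substrates to HSP70 and start its ATP hydrolysis. In the DNAJA class 2 of 4 genes rose, in DNAJB 3 of 13, with 1 lower, and in DNAJC 8 of 27, with 3 lower. The median log2 fold changes of the classes were 0.48, 0.03 and 0.17. Dnaja1, a main partner of HSC70 in the cytosol, read 1152, 1097 and 1287 in the FRG+NTBC livers and 2419, 3126 and 2539 in the FRG-7dNTBC livers. That is a log2 fold change of 1.19 ± 0.14 (SE, limma adjusted p = 0.000778) without overlap, but its other probe sets gave 0.31 and 0.17, and the mean over all 3 did not pass (0.56, adjusted p = 0.0617). Dnaja3, the mitochondrial member, read 601, 635 and 662 in the FRG+NTBC livers and 969, 929 and 749.6 in the FRG-7dNTBC livers, a log2 fold change of 0.47 ± 0.14 (SE, limma adjusted p = 0.0370) whose call held under 4 of 15 alternatives. Dnaja2 (log2 fold change 0.48) and Dnaja4 (0.01) did not pass.

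Dnajb1 is the classical heat-inducible HSP40 of the cytosol, and its probe sets differed. The brighter one read 622, 671 and 662 in the FRG+NTBC livers and 671, 617 and 709 in the FRG-7dNTBC livers. These values overlapped closely, with a log2 fold change of 0.03 ± 0.12 (SE) and an adjusted p of 0.877. The dimmer one read 153, 151 and 151 in the FRG+NTBC livers and 383, 601 and 274 in the FRG-7dNTBC livers and was called higher at 1.39 on the log2 scale. The mean over both passed as well (0.71, adjusted p = 0.00525).

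Dnajb4, a close relative of Dnajb1, read 201, 159 and 212 in the FRG+NTBC livers and 657, 1031 and 601 in the FRG-7dNTBC livers. All FRG-7dNTBC values were above 600, and the log2 fold change was 1.97 ± 0.22 (SE, limma adjusted p = 0.000570). A second Dnajb4 probe set rose by 2.22 on the log2 scale, and a dim one was called lower at -0.43, the only one of the 77 genes with probe sets called both ways. Dnajb6, which keeps aggregation-prone proteins soluble, rose by 0.68 on the log2 scale, with 3 of 4 probe sets called higher. Dnajb5, at 84.8 and 57.9 on average in the FRG+NTBC and FRG-7dNTBC groups, fell by 0.55 on the log2 scale. That call was lost without ambiguous probe sets (-0.39, adjusted p = 0.0692), without FRG-7dNTBC replicate 1 (-0.49, adjusted p = 0.0583) and on the mean of its probe sets (-0.29, adjusted p = 0.0626).

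Dnajb9 (ERdj4) and Dnajb11 (ERdj3) are partners of BiP in the ER. Dnajb9 read 765, 755 and 1031 in the FRG+NTBC livers and 2798, 3769 and 2896 in the FRG-7dNTBC livers, far apart, with a log2 fold change of 1.89 ± 0.18 (SE, limma adjusted p = 0.000275). It had the largest change of the ER genes. Dnajb11 read 560.3, 724 and 855 in the FRG+NTBC livers and 739, 1261 and 879 in the FRG-7dNTBC livers. Its groups overlapped, and the log2 fold change of 0.41 ± 0.23 (SE) did not pass (adjusted p = 0.225).

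Dnajc12 was second only to Hspb1 among the 77 genes by log2 fold change. It lies at chr10:63382443-63408840 and encodes a partner of HSP70 that helps the aromatic amino acid hydroxylases, including the phenylalanine hydroxylase of liver, to fold. Its single probe set read 269, 219.8 and 211 in the FRG+NTBC livers and 1833, 1951 and 1209 in the FRG-7dNTBC livers. The lowest FRG-7dNTBC value lay well above the highest FRG+NTBC value, and the log2 fold change was 2.81 ± 0.20 (SE, limma adjusted p = 9.56e-05).

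Dnajc3 (P58IPK) works with BiP in the ER lumen, and Dnajc10 (ERdj5) reduces disulfide bonds of misfolded protein there. Dnajc3 read 1585, 1252 and 1489 in the FRG+NTBC livers and 2778, 3040 and 2837 in the FRG-7dNTBC livers, a clear separation with a log2 fold change of 1.01 ± 0.13 (SE, limma adjusted p = 0.00116). Its other 4 probe sets, all dimmer, gave values between -0.22 and 0.20, and the mean over all 5 did not pass (0.17, adjusted p = 0.517). Dnajc10 rose by 0.96 on the log2 scale, and all 3 of its probe sets were called higher.

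Dnajc2 sits at the ribosome, where it receives nascent chains with Hspa14. It read 367, 288 and 313 in the FRG+NTBC livers and 739, 695 and 1090 in the FRG-7dNTBC livers, without overlap and with a log2 fold change of 1.36 ± 0.19 (SE, limma adjusted p = 0.00161), and 3 of its 4 probe sets were called higher. Dnajc24, a dim gene whose product serves diphthamide synthesis, read 18.9, 25.8 and 35.3 in the FRG+NTBC livers and 64.0, 79.3 and 40.2 in the FRG-7dNTBC livers. Its groups were separated by little, from 35.3 to 40.2, and the log2 fold change of 1.19 ± 0.30 (SE, limma adjusted p = 0.0193) was not called on leaving out FRG+NTBC replicate 1 (adjusted p = 0.066), FRG+NTBC replicate 2 (0.0665) or FRG-7dNTBC replicate 1 (0.0702), nor without moderation (0.124). Dnajc15, part of the mitochondrial import motor, rose by 0.80, Dnajc13, an endosomal protein, by 0.54, and Dnajc22 by 0.52 (log2). The call of Dnajc13 held under 8 of 15 alternatives and that of Dnajc22 under 7.

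The genes called lower among the DNAJC class were Dnajc25 (log2 fold change -0.87), Dnajc4 (-0.76) and Dnajc5g (-0.40). Dnajc25, placed in the ER membrane, read 187, 173 and 186 in the FRG+NTBC livers and 111, 88.0 and 100.4 in the FRG-7dNTBC livers. Dnajc4, placed in mitochondria, read 193, 265 and 237 in the FRG+NTBC livers and 147, 137 and 123 in the FRG-7dNTBC livers. Neither showed overlap, and their adjusted p-values were 0.00203 and 0.00794. Dnajc5g read between 17.6 and 26.0 in all mice, near the Rag2 reading, and its call held under 7 of 14 alternatives. The 16 other DNAJC genes ranged from -0.64 in Dnajc17 to 0.40 in Dnajc28 and did not pass.

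BAG proteins bind the ATPase domain of HSP70 and release its nucleotide, and 3 of 6 rose, Bag3, Bag2 and Bag5. Bag3, at chr7:128523583-128546981, couples HSP70 and HSPB8 to autophagy and read 215, 242 and 276 in the FRG+NTBC livers and 1105, 1924 and 1323 in the FRG-7dNTBC livers. The lowest FRG-7dNTBC value, 1105, was far above the FRG+NTBC values, and the log2 fold change was 2.54 ± 0.21 (SE, limma adjusted p = 0.000172). Bag2, which holds back the ubiquitin ligase CHIP, read 50.9, 36.8 and 54.2 in the FRG+NTBC livers and 115, 120.3 and 97.7 in the FRG-7dNTBC livers, also without overlap and with a log2 fold change of 1.25 ± 0.18 (SE, limma adjusted p = 0.00154). Bag5 rose by 0.77 on the log2 scale. Its other probe set gave a log2 fold change of 0.05, and the call was lost on the mean of both (0.41, adjusted p = 0.0751) and without moderation (adjusted p = 0.0753). Bag1, the first described member, read 1924, 2150 and 1758 in the FRG+NTBC livers and 1734, 2180 and 1808 in the FRG-7dNTBC livers, which overlapped fully with a log2 fold change of -0.03 ± 0.14 (SE) and an adjusted p of 0.898. Bag4 (log2 fold change 0.12) and Bag6 (0.05) did not pass either. Another Bag4 probe set was called lower, with a log2 fold change of -0.72 ± 0.16 (SE, limma adjusted p = 0.0124), and no direction can be given for Bag4.

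Of the heat shock factors, Hsf2 was measured. It was dim, at 51.6, 48.2 and 44.6 in the FRG+NTBC livers and 29.2, 18.8 and 44.0 in the FRG-7dNTBC livers, and the log2 fold change of -0.73 ± 0.28 (SE) did not pass (adjusted p = 0.0858). It did pass on scaling to the 75th percentile, with array weights and without FRG-7dNTBC replicate 3 (log2 fold changes of -0.86, -0.70 and -1.04). The other Hsf2 probe set was called higher at 0.63 on the log2 scale, again from low values (means of 14.7 and 23.0). No direction can be given for Hsf2.

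The counts by compartment stand against 17.4% of all genes called higher and 12.7% called lower. For genes with a mean intensity of at least 128 the shares were 29.2% and 19.6%. By compartment, 16 of 44 genes of the cytosol and nucleus rose and 1 fell. In the ER 6 of 13 genes rose and 1 fell, and in the mitochondria 4 of 8 rose and 1 fell. Of the 12 genes placed elsewhere or in no single compartment, 2 rose and 2 fell. Median log2 fold changes were 0.18, 0.41, 0.50 and 0.00. The compartments also differed in brightness, with median intensities of 284.7, 507.9, 864.6 and 36.6 in the same order, so that their counts were not set against each other. Without moderation, 3 ER genes and 1 mitochondrial gene were called higher, and 2 mitochondrial genes were on leaving out FRG+NTBC replicate 1, FRG+NTBC replicate 2 or FRG-7dNTBC replicate 1.

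Within compartments the genes were divided by a list of known targets of heat shock factor 1 and of the unfolded protein response. The list was made with earlier results of these data known, so the split is descriptive and gives no independent support. Of all genes 17.4% were called higher and 12.7% lower. Of 11 cytosolic genes listed as heat shock factor targets, 8 rose, each at least 2-fold, and the median log2 fold change was 1.48. The 3 others were Hspa1b, Dnajb1 and Hspa8. Of the 33 cytosolic genes with no listed regulator 8 rose, with a median of 0.10: Dnajc12, Hspa4, Dnajb4, Dnajc2, Bag2, Dnajc24, Bag5 and Dnajb6. In the ER, 5 of the 6 unfolded protein response genes rose, with a median of 0.98, Dnajb11 being the exception, and among the 7 other ER genes Hspa13 rose and Dnajc25 fell, with a median of 0.12. In the mitochondria, both listed genes, Hspd1 and Hspe1, rose, and of the 6 others Dnajc15 and Dnaja3 rose and Dnajc4 fell. The listed genes were brighter than the rest (median intensities of 1085 for the cytosolic and 1816 for the ER list, against 123.9 and 319.9), and no test of the lists was made.

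**Figure D3:**
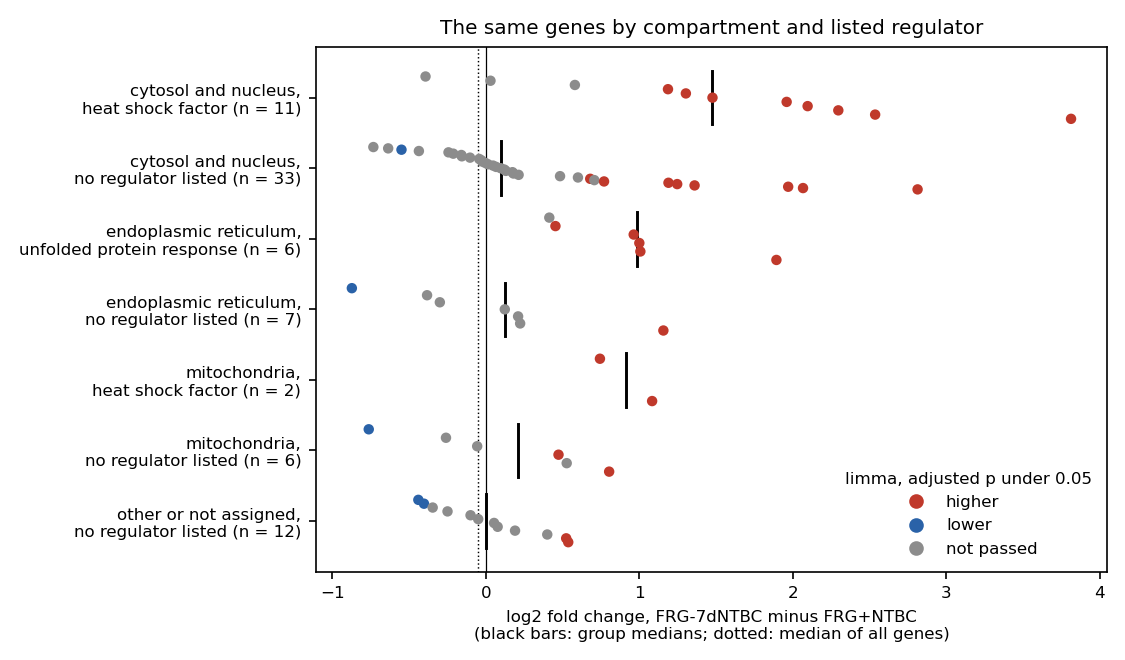
Log2 fold change (x axis, positive where FRG-7dNTBC is higher, 3 mice per group) of the 77 genes, split on the y axis by compartment and by the regulator listed for them. The lists were made with earlier results of these data known. Black bars mark group medians, which are 1.48 for cytosolic heat shock factor targets and 0.98 for ER genes of the unfolded protein response, against 0.10 and 0.12 for the genes with no listed regulator, and the dotted line marks the median of all genes at -0.05.

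A gene's value depended on the probe set read. Of the 77 genes 48 had several probe sets, up to 6, and of all 180 probe sets 60 were called higher, 11 lower and 109 neither. At least 1 probe set was higher in 37 genes and at least 1 lower in 11. A gene with more probe sets has more occasions for a call. The matching shares over all probe sets and genes are not given here, so these counts have no baseline. Hspb1, Hsph1, Hspe1, Hsp90b1, Dnajc10 and Dnajc24 were called higher in every probe set they had. Hspa4, Dnaja1, Dnaja3, Dnajc3, Dnajc13, Dnajc22 and Bag5 were called in the brightest alone. Dnajb1, Hspa1b, Hsf2, Dnaja2, Dnaja4, Dnajc5, Dnajc8, Dnajc16 and Dnajc17 were called higher in dimmer probe sets but not in the brightest. Bag4, Hspa9, Dnajc1, Dnajc11 and Dnajc21 were likewise called lower in a dimmer one.

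**Figure D4:**
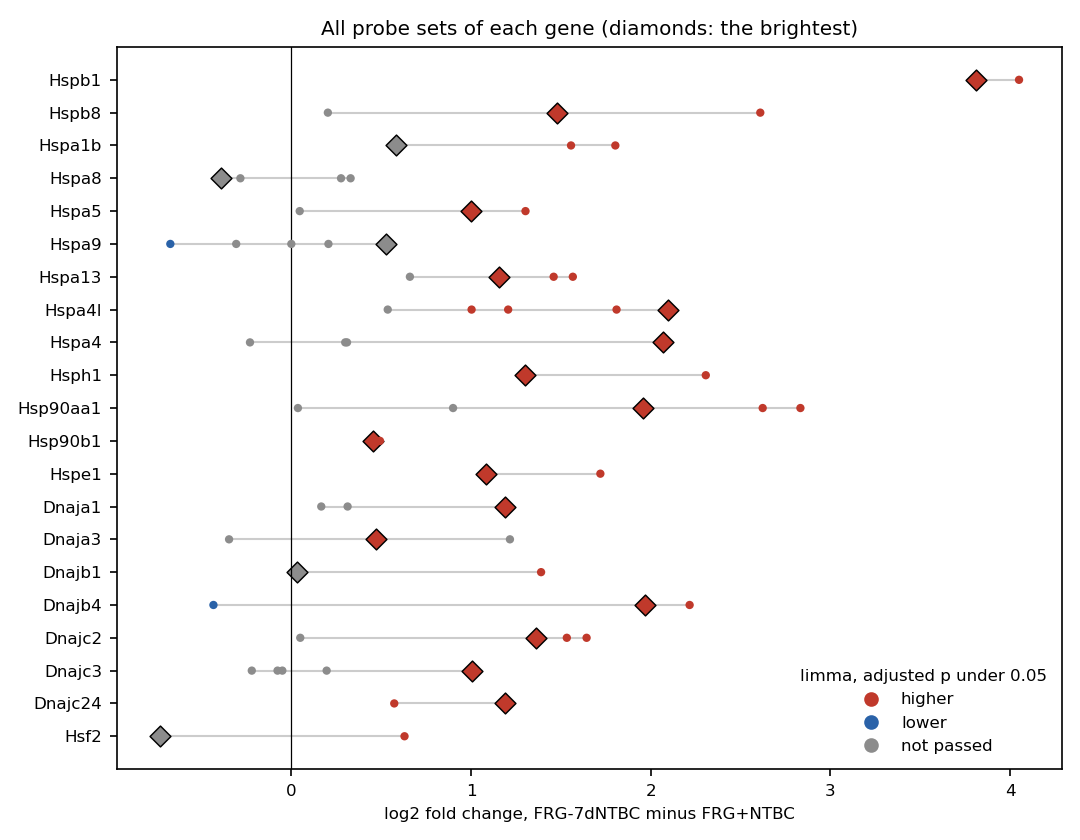
Log2 fold change (x axis, positive where FRG-7dNTBC is higher) at every probe set of 21 genes with several, 1 gene per line on the y axis, with a diamond for the brightest probe set, which represents the gene, and colours for the limma call. Hspa4 spans from -0.23 to 2.07 and Hspa9 from -0.67 to 0.53, whereas both Hspb1 probe sets lie at 3.81 and 4.05.

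Genes that work with these families but carry other names were read from a list of 59, of which 53 were measured. In the FRG-7dNTBC livers 19 of the 53 (35.8%) were higher, 4 (7.55%) were lower, and the median log2 fold change was 0.40. The shares over all genes were 17.4% and 12.7%, and over genes with a mean intensity of at least 128 they were 29.2% and 19.6%. The median intensity of the partner genes was 619.5, and their share higher lay near that of bright genes. Of 16 HSP90 cochaperones 5 rose and 2 fell. The calls of Sugt1 (higher) and Cdc37l1 (lower) were lost on the mean of their probe sets. Stip1 (HOP), which links HSP70 to HSP90, read 162, 103 and 127 in the FRG+NTBC livers and 425, 372 and 307 in the FRG-7dNTBC livers and rose by 1.50 on the log2 scale. Ahsa1, which speeds the HSP90 ATPase, rose by 1.35 on the log2 scale. Rpap3, of the complex that loads HSP90 in assembly of polymerases, rose by 1.99 on the log2 scale. Pih1d1, a partner of Rpap3 in that complex, fell by 1.18 on the log2 scale. Of 9 HSP70 partners outside the families, Hspbp1 (log2 fold change 0.65) and Grpel2 (0.60) were called higher. The Hspbp1 call was lost under 7 of 15 alternatives and that of Grpel2 under 10, among them the mean of its probe sets (0.13, adjusted p = 0.567). Hyou1, the HSP110 of the ER, gave 0.40 on the log2 scale at its brightest probe set and did not pass. Hyou1 passed on the mean of its probe sets (1.06, adjusted p = 0.0177), without ambiguous probe sets (1.30, adjusted p = 0.0143) and without FRG+NTBC replicate 1 (0.61, adjusted p = 0.0382).

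The cytosolic chaperonin TRiC/CCT folds actin and tubulin and receives chains from prefoldin. Of its 9 measured genes 6 rose and none fell under limma (at an unadjusted p under 0.05, 6 and 0), the largest being Cct8 (1.76), Cct5 (1.24) and Cct7 (1.05). The call of Cct3 (0.64) was lost under several alternatives. Of 6 prefoldin genes 4 rose, Pfdn4 (log2 fold change 1.54), Pfdn2 (1.49), Vbp1 (0.98) and Pfdn1 (0.68). Of the 13 other heat shock genes and regulators 2 rose, Clpx, a mitochondrial unfoldase, by 1.77 and Hsbp1, which binds heat shock factor 1, by 1.29 (log2). Another 2 were called lower, Hsbp1l1 (log2 fold change -1.06) and Clpp (-0.40), the protease that Clpx feeds. The Clpp call was lost under 10 of 15 alternatives and its sign turned under 2 of these, so no direction can be given for it. Cryab, a small heat shock protein of lens and muscle (log2 fold change 0.83), and Serpinh1, the collagen chaperone of the ER (-0.37), did not pass.

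Marker genes of liver cell types were read beside these results. Their counts stand against 17.4% of all genes called higher and 12.7% called lower. For genes with a mean intensity of at least 128 the shares were 29.2% and 19.6%. Summed over 8 hepatocyte markers, intensity was 106200 to 109100 in the FRG+NTBC and 97540 to 102600 in the FRG-7dNTBC livers. Such sums weigh the brightest probe sets most and are not amounts of RNA. The brightest on average were Alb, Ttr and Apoa1 here, Csf1r among the macrophage markers and Col3a1 among the stellate and smooth muscle markers. Alb, Ttr and Apoa1 did not pass, while Tat (log2 fold change -1.92), Cps1 (-0.73) and Hnf4a (-0.50) fell. Of 7 macrophage markers 4 rose, Cd68 (log2 fold change 2.23), Vsig4 (1.58), Marco (1.09) and Timd4 (0.91), with summed levels of 1440 to 1886 and 1310 to 3484. Clec4f (0.55), Csf1r (0.09) and Adgre1 (-0.08) did not pass. Of 6 endothelial markers 2 rose (1118 to 1670 and 1778 to 2191), and of 8 stellate and smooth muscle markers 1, Lrat (1261 to 1522 and 712.7 to 2933). In FRG-7dNTBC replicate 2 Csf1r read 530 and Col3a1 156.5. FRG-7dNTBC replicates 1 and 3 read 1370 and 1978 for Csf1r and 1734 and 1924 for Col3a1. Replicate 2 is also the mouse with the highest value in 17 of the 28 higher chaperone genes, and a link was not tested. Of 6 skeletal muscle markers 1, Mylpf, rose (137.8 to 153.1 and 175.1 to 228.6).

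None of 5 cholangiocyte markers (188.5 to 221.4 and 156.4 to 234.4), 5 neutrophil markers (184.3 to 239.6 and 174.1 to 269.1) or 5 lymphocyte markers (204.4 to 219.0 and 191.4 to 203.1) passed under limma. At an unadjusted p under 0.05 there were 1 higher and 1 lower, 1 lower, and 0. The lymphocyte markers Cd3g and Ncr1 were below the Rag2 reading, and the others were above it. Their mean intensities in the FRG+NTBC and FRG-7dNTBC groups were 102.4 and 96.7 for Cd8a, 64.3 and 57.7 for Cd3e, and 25.7 and 24.9 for Cd79a. The part of these cell types in the chaperone results was not tested.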

How the data were processed

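Liver RNA of 3 FRG+NTBC and 3 FRG-7dNTBC mice was measured on 6 Affymetrix Mouse 430 2.0 arrays. The authors made the deposited intensity values by Robust Multiarray Analysis (background correction, quantile normalization, median polish). The Transcriptome Analysis Console is named in the submitters' notes. Values are linear, from 3.84 to 29532. Log2 was taken here, and the groups were compared with limma 3.58.1 in R 4.3.3 (lmFit, eBayes, two-sided), with Benjamini-Hochberg adjustment over 45037 probe sets, none of them control probe sets. The number of arrays limits the precision: for a single gene, 3 mice against 3 give an exact permutation p of at least 0.1.

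Genes were named from the array annotation, which gives 34945 probe sets 1 symbol, 932 several and 9160 none. Only those with 1 symbol were used. The 77 genes, their grouping by family, compartment and regulator, the partner genes and the 8 marker lists were chosen with earlier results of these data known. Values of every mouse are given for called genes that changed at least 2-fold (log2 of 1) and for the best known gene of each family or compartment. Outside this rule they are also given for Dnajc25 and Dnajc4, which were called lower by less than 2-fold. Of the partner genes, the 3 largest called changes per list and Stip1, Cryab, Hyou1 and Serpinh1 are named. Pih1d1, Pfdn1, Clpp, Cct3, Cdc37l1 and Sugt1 were added after their values were seen. Mouse numbers recur in both groups, but deviations from the group means of equally numbered mice correlated at 0.106, 0.034 and -0.156, so the numbers were not taken as pairs. The script was tested on simulated data. Alternatives covered scaling, a second quantile normalization, dim probe sets, moderation, array weights, ambiguous probe sets, the mean over a gene's probe sets, the replicate block and leaving out each mouse.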

Additional observations from a re-analysis of the deposited data

How the results depend on the processing

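Of the 28 chaperone genes called higher, 16 kept that call under all 15 alternatives, and of the 5 called lower 1 did, Dnajc25. The 28 became 18 without moderation of the variances, 24 with the replicate block and 22 to 28 on leaving out each mouse in turn. The 5 called lower became 9 on scaling to the 75th percentile and 9 with array weights, 3 without moderation and 3 with the replicate block. On leaving out each mouse they were 2 to 5: 3 without FRG+NTBC replicate 1 or replicate 2, and 2 without FRG-7dNTBC replicate 1. The 19 partner genes called higher became 10 without moderation, 18 with the replicate block and 14 to 20 on leaving out each mouse, and the 4 called lower became 3 to 6 over all alternatives. Scaling to the 75th percentile moved the median over all probe sets from -0.08 to -0.21 (log2), and the counts under it are relative to that shift. The replicate block is described as an alternative only, since equal numbers did not mark mice that deviate together. Not every mouse correlated best with the one of its own number. The cause of these changes was not tested. Of the 77 chaperone genes and the called partner genes, 1 called gene turned its direction: Clpp was at 0.55 without ambiguous probe sets and at 0.0717 on the mean of its probe sets (log2). Some that did not pass changed sign under at least 1 of them, Bag1, Dnajb1, Hspa8, Hspa9 and Serpinh1 included. Among the partner genes the calls of Cct8, Clpx, Hsbp1 and Pfdn2 were lost without moderation. Those of Pfdn1 and Vbp1 were lost there and without FRG+NTBC replicate 2. Those of Cct3, Grpel2, Hspbp1 and Clpp were lost under several, for Cct3 without moderation among others (adjusted p = 0.108). On the mean of their probe sets the calls of Cdc37l1 (log2 fold change -0.08, adjusted p = 0.531) and Sugt1 (0.24, adjusted p = 0.166) were lost. Limits that remain are 3 mice per group, genes near the background of the array, and probe sets of 1 gene that differ.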
